A study of Arabidopsis thaliana with 17 samples.

Results

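P5CS1 (AT2G39800), SIP1 (AT5G40390) and ALDH7B4 (AT1G54100) encode stress-related enzymes of Arabidopsis thaliana, and their transcripts are described here in shoots and roots of lines with a deletion in the NBR1 gene and of wild type plants. Each is represented by 1 probe set: 13419142 for P5CS1, 13508681 for SIP1 and 13379351 for ALDH7B4. They are 3 of the 18107 probe sets that have a gene name, out of 28583 on the array. The 3 genes were selected by name, on the differences between KO lines and WT that these same arrays had already shown. For this reason their KO against WT values are given as a description without a test.

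Osmoprotectants are small soluble compounds that plant cells accumulate when water is scarce. P5CS1 encodes delta-1-pyrroline-5-carboxylate synthetase, the first and rate-limiting enzyme of proline synthesis from glutamate. SIP1 encodes a raffinose synthase, which transfers a galactose unit from galactinol to sucrose. ALDH7B4 encodes an aldehyde dehydrogenase of the antiquitin family, which detoxifies the reactive aldehydes formed under stress. Transcripts of all 3 are known to be induced by drought, salt or the hormone abscisic acid (ABA).

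The series holds 17 arrays of 4-week-old plants, which were grown hydroponically in diluted Hoagland medium under short days. There are 2 deletion lines, KO1 and KO3, and their parental ecotype Col-0 (WT). The deletions in NBR1, which encodes a selective autophagy cargo receptor, were made by CRISPR/Cas9, and the transgenes were then crossed out. Each line was sampled as shoots and as roots, with 3 biological replicates per group except WT roots, which are represented here by 2 (replicates 1 and 3), and each RNA came from portions of several plants. The values are log2 signals after RMA, so 1 unit is a 2-fold difference. Since whole organs were sampled, fewer expressing cells and less transcript per cell cannot be told apart.

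NBR1 itself had signals of 1.67, 1.52 and 1.71 in KO1 shoots and 1.81, 1.65 and 1.54 in KO3 shoots, against 5.73, 6.44 and 6.37 in WT shoots. In roots it had 3.70, 3.26 and 3.70 in KO1 and 3.82, 4.59 and 3.87 in KO3, against 7.41 and 7.23 in WT. Every KO array was thus far below every WT array. The KO signals were 0.61 to 1.96 above the array median in roots and below it in every KO shoot array, and where this probe set lies relative to the deletions is not given in the sources used here. The organs matched their labels by the markers that could be measured. The light-harvesting genes LHCB4.1 and LHCB4.2 (2 of 19 green tissue markers listed) had signals of 6.20 to 9.27 in shoots and 1.13 to 3.39 in roots, and the root genes PHT1;1 and EXPA7 (2 of 14 root markers listed) had 0.78 to 1.78 in shoots, against 5.0 to 6.38 in roots. The median signal of an array ranged between 1.72 and 1.85 among shoots and between 2.61 and 2.67 among roots, and whether both organs were normalised together is not stated, so levels are ordered within an organ only.

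The array of KO1 shoots replicate 1 stood apart from the others. Its signals had an SD of 1.41 over all probe sets, where those of the remaining 8 shoot arrays had 1.94 to 2.07. Its mean correlation with these was 0.934, whereas theirs were 0.971 to 0.976. On it LHCB4.1 and LHCB4.2 differed from the WT mean by -1.76 and -2.21. The KO1 shoot values of the 3 genes are therefore given with and without this array. Among roots, WT replicate 1 had the lowest SD (1.91, against 1.95 to 2.05 for the other 7 root arrays) and the lowest mean correlation (0.978, against 0.983 to 0.987).

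**Figure D1:**
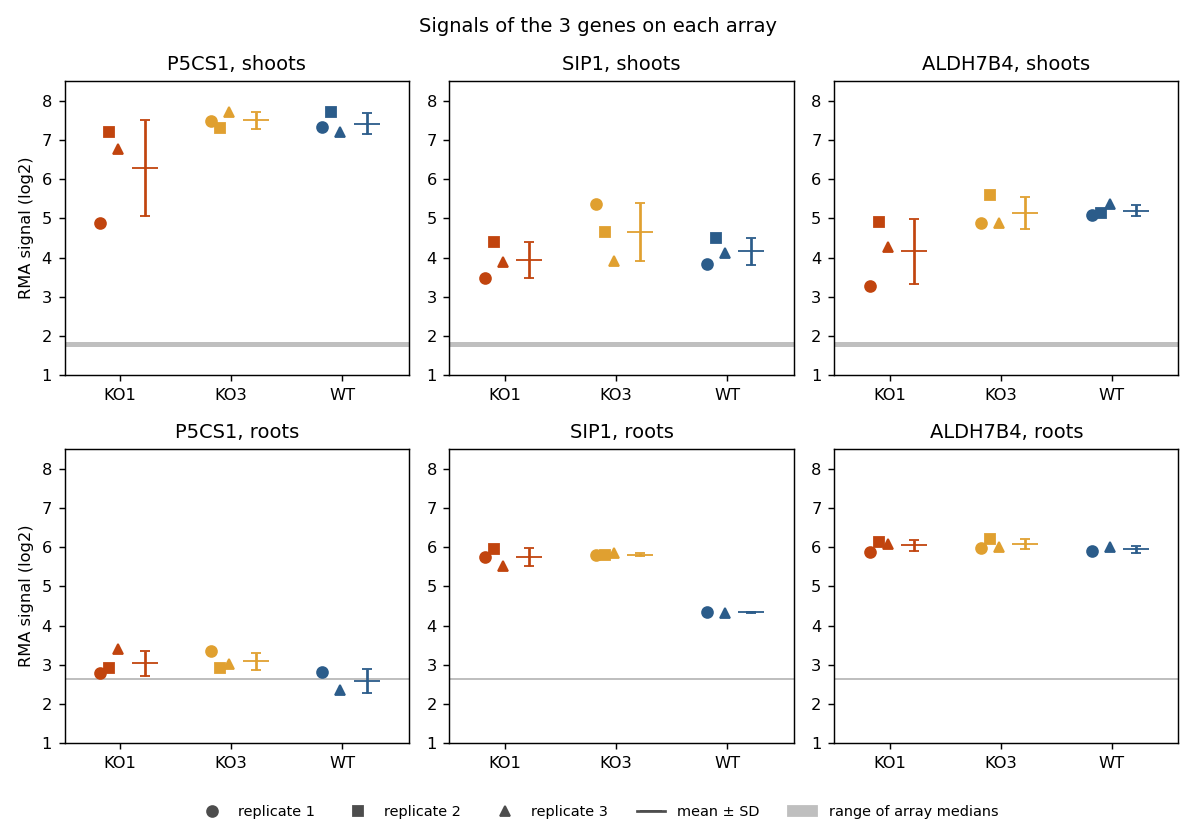
RMA signal (log2, vertical axis) of P5CS1, SIP1 and ALDH7B4 on each of the 17 arrays, in shoots (upper panels) and roots (lower panels) of KO1, KO3 and WT; markers give the replicate, bars the mean ± SD and the grey band the range of array medians in that organ. The SIP1 signals of all 6 KO root arrays (5.51 to 5.96) sit above those of both WT root arrays (4.34 and 4.33), and KO1 shoots replicate 1 is the lowest shoot array for each gene.

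SIP1, which makes raffinose, was the member that differed most from WT in roots. Its root signals were 5.74, 5.96 and 5.51 in KO1 (mean 5.74 ± 0.23, SD, n = 3) and 5.79, 5.79 and 5.84 in KO3 (5.81 ± 0.03, SD, n = 3), against 4.34 and 4.33 in WT (4.34 ± 0.01, SD, n = 2). All KO root arrays were above both WT root arrays, and the 2 KO lines overlapped each other. The mean was 1.40 higher in KO1 than in WT (standard error, SE, 0.15 from limma, 2.64-fold), and the nearest arrays of the 2 groups were 1.17 apart. In KO3 it was 1.47 higher than in WT (SE 0.15, 2.77-fold), with a gap of 1.45.

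Differences of this size were rare among the probe sets tested. However, SIP1 was selected on the KO against WT differences of these same arrays. A high rank in them is therefore favoured by the selection, and the ranks are a description without a test. The same holds for the shares of probe sets as far from WT that are given below for P5CS1 and ALDH7B4. In KO1 roots 17 of the 18107 (0.0939%) were as far above WT as SIP1 or farther, SIP1 included, and 5 had a gap as wide. In KO3 roots the numbers were 12 (0.0663%) and 2. Complete separation of the arrays was itself common with only 2 WT arrays, since 11.4% of probe sets in KO1 roots and 12.4% in KO3 roots had every KO array above both WT arrays (11.5% and 11.8% had every KO array below). Both comparisons use the same WT arrays. The 2 WT arrays differed by 0.01 for SIP1, against a median of 0.22 over all probe sets, so the SD of WT roots is narrower for this gene than is usual here.

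In shoots the SIP1 signals were 3.49, 4.40 and 3.89 in KO1 (3.93 ± 0.46, SD, n = 3) and 5.37, 4.65 and 3.92 in KO3 (4.65 ± 0.73, SD, n = 3), against 3.84, 4.51 and 4.13 in WT (4.16 ± 0.34, SD, n = 3). Arrays of all 3 lines overlapped. The difference between KO1 and WT was -0.23 (SE 0.37), or -0.01 without KO1 replicate 1. KO3 was 0.49 above WT (SE 0.37, 1.40-fold). This value moved to 0.12 without KO3 replicate 1 and to 0.85 without KO3 replicate 3. The order of means in shoots was KO3, WT and KO1, and each neighbour in that order lay within the spread of the next. In roots the order was KO3, KO1 and WT, and only WT stood apart.

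P5CS1, which starts proline synthesis, had signals far above the array median in shoots and close to the array median in roots. Its shoot signals were 4.88, 7.19 and 6.78 in KO1 (6.28 ± 1.23, SD, n = 3) and 7.49, 7.30 and 7.71 in KO3 (7.50 ± 0.21, SD, n = 3), against 7.33, 7.71 and 7.20 in WT (7.41 ± 0.27, SD, n = 3). The KO1 arrays were all below the WT arrays, but by a gap of only 0.01, and KO1 replicate 1 was far below the other 2. The mean difference between KO1 and WT was -1.13 (SE 0.51, WT 2.19-fold higher), smaller than the SD of the KO1 arrays, and it was -0.43 without KO1 replicate 1 (WT 1.35-fold higher). KO3 and WT overlapped and differed by 0.09 (SE 0.51). Since the 3 lines share 1 estimate of the spread, KO1 replicate 1 widened this SE too, which was 0.19 without that array.

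In KO1 shoots 2.74% of probe sets were as far below WT as P5CS1 or farther. The means of KO1 were below those of WT for 61.4% of all probe sets. Every KO1 array was below every WT array for 12.2% and above for 3.6%, and in KO3 shoots the corresponding shares were 6.32% and 6.06%.

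In roots the P5CS1 signals were 2.80, 2.93 and 3.40 in KO1 (3.04 ± 0.32, SD, n = 3) and 3.34, 2.92 and 3.02 in KO3 (3.09 ± 0.22, SD, n = 3), against 2.81 and 2.37 in WT (2.59 ± 0.31, SD, n = 2). The lowest KO1 array fell just below the higher WT array, whereas all KO3 arrays were above both WT arrays by at least 0.11. The difference from WT was 0.45 in KO1 (SE 0.22, 1.37-fold) and 0.50 in KO3 (SE 0.22, 1.42-fold), and 4.06% and 4.00% of probe sets lay as far above WT. These values depended on which WT array was kept. Leaving out WT replicate 1 gave 0.67 in KO1 and 0.72 in KO3, and leaving out WT replicate 3 gave 0.23 and 0.28.

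ALDH7B4, the aldehyde dehydrogenase, showed the smallest differences in roots. Its root signals were 5.88, 6.14 and 6.09 in KO1 (6.04 ± 0.14, SD, n = 3) and 5.98, 6.21 and 6.01 in KO3 (6.07 ± 0.13, SD, n = 3), against 5.89 and 6.0 in WT (5.94 ± 0.08, SD, n = 2). All 3 lines lay within a narrow band and overlapped. The differences from WT were 0.09 in KO1 and 0.12 in KO3 (SE 0.15 each), and 33.5% and 29.7% of probe sets lay as far above WT. The 2 WT root arrays differed by 0.11.

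The shoot signals of ALDH7B4 were 3.27, 4.92 and 4.28 in KO1 (4.16 ± 0.83, SD, n = 3) and 4.89, 5.6 and 4.89 in KO3 (5.13 ± 0.41, SD, n = 3), against 5.09, 5.13 and 5.37 in WT (5.20 ± 0.15, SD, n = 3). KO1 was below WT on every array, by a gap of 0.17, while KO3 overlapped WT. The difference from WT was -1.04 in KO1 (SE 0.38, WT 2.06-fold higher), with 3.74% of probe sets as far below, and -0.60 without KO1 replicate 1 (WT 1.51-fold higher). In KO3 it was -0.07 (SE 0.38, or 0.23 without KO1 replicate 1). Of the 3 genes, ALDH7B4 thus had the largest difference between KO1 and WT shoots once replicate 1 was left out.

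**Figure D2:**
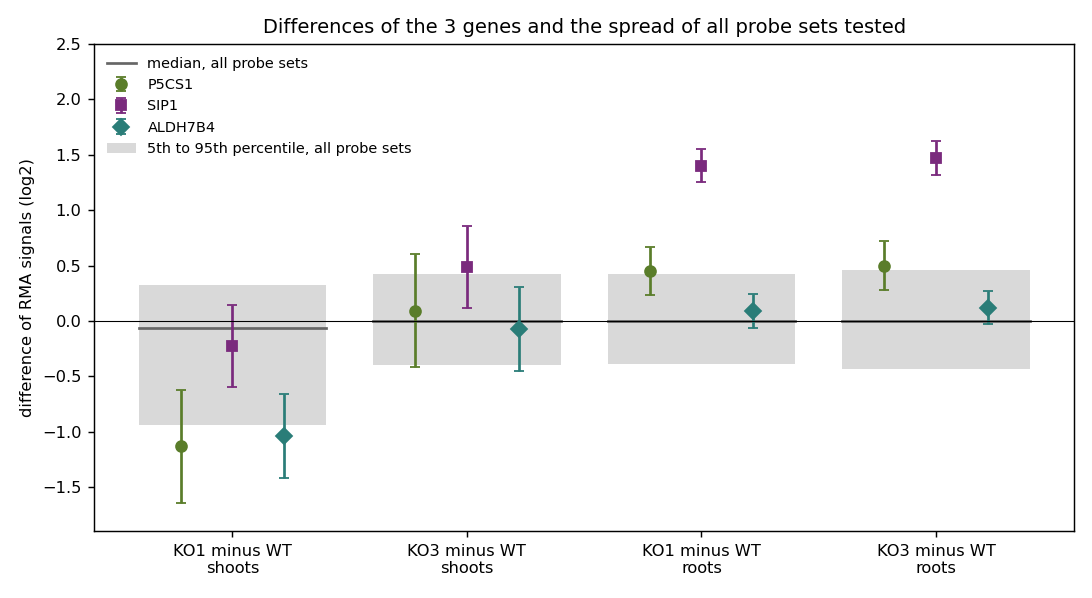
Difference of mean RMA signals (log2, vertical axis) between each KO line and WT, for P5CS1, SIP1 and ALDH7B4 with limma's standard error, over a grey bar from the 5th to the 95th percentile of all 18107 probe sets tested and a line at their median. SIP1 in roots (1.40 in KO1 and 1.47 in KO3) lies far above the bar, and in KO1 shoots P5CS1 (-1.13) and ALDH7B4 (-1.04) lie below a bar that itself reaches down to -0.94.

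The 2 KO lines were then compared with each other. The genes were not chosen on this contrast, but it uses the same KO arrays as the differences they were chosen on. Its p-values and intervals are therefore not independent of the choice. In roots KO1 minus KO3 was -0.05 for P5CS1 (95% interval -0.47 to 0.37), -0.07 for SIP1 (-0.38 to 0.24) and -0.03 for ALDH7B4 (-0.32 to 0.26), with an adjusted p of 0.997 from limma for each. For SIP1 the interval therefore held only differences much smaller than the 1.40 and 1.47 by which the KO lines exceeded WT. In shoots the differences were larger, at -1.22 for P5CS1 (SE 0.51, interval -2.37 to -0.07), -0.72 for SIP1 (SE 0.37, -1.56 to 0.12) and -0.97 for ALDH7B4 (SE 0.38, -1.83 to -0.11). None of the 3 passed the test after adjustment over all probe sets (adjusted p = 0.648 for each, limma), although the unadjusted p was 0.0405 for P5CS1 and 0.0314 for ALDH7B4. Of the 18107 probe sets, 0.0% were called by limma in either direction in either organ, with an unadjusted p under 0.05 for 1211 in shoots and 595 in roots. P5CS1 was the only 1 of the 3 whose KO1 shoot arrays were all below the KO3 shoot arrays, as were those of 8.99% of all probe sets. Without KO1 replicate 1 the shoot differences were -0.52 for P5CS1, -0.50 for SIP1 and -0.53 for ALDH7B4, and after quantile normalisation they were -0.35, -0.24 and -0.50. SIP1 also moved to -0.36 without KO3 replicate 1 and to -1.08 without KO3 replicate 3.

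The other genes of the same pathways were drawn from 3 lists of textbook genes, 44 in all, of which 19 had a named probe set. The lists were chosen with earlier results of these data known, so their counts and p-values are no independent support. With P5CS1, SIP1 and ALDH7B4 left out, 16 genes remained: 3 of proline metabolism, 4 of raffinose family oligosaccharides, and 9 aldehyde dehydrogenases and lysine catabolism genes. Probe sets of P5CS2, P5CDH and the other galactinol synthases were not named in the sources used here. Those of ERD5, SIP2, DIN10, GolS3 and ALDH3H1 were named only by the study's lists of genes changed in an NBR1 overexpression line. Only 603 of the 18107 probe sets were named that way. The shares over all probe sets given below are therefore not a like baseline for the 16 genes.

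In roots none of the 16 genes passed the adjusted test in either KO line. In KO1 roots limma called 0 of 16, against 0.0884% of all probe sets called higher and 0.0387% called lower. At an unadjusted p under 0.05, 2 of the 16 were higher and 2 lower, against 4.48% and 3.90% of all probe sets. In KO3 roots it also called 0 of 16, against 0.121% called higher and 0.0939% called lower. Here 3 were higher and 3 lower at an unadjusted p under 0.05, against 5.86% and 5.38% of all probe sets. The median difference from WT was 0.02 in KO1 and 0.11 in KO3, against 0.002 over all probe sets in both lines. Complete separation from WT was seen for 2 genes higher and 2 lower in KO1 roots, against 11.4% and 11.5% of all probe sets. In KO3 roots it was seen for 3 higher and 3 lower, against 12.4% and 11.8%.

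In proline metabolism, the root signals of ProDH2, a mitochondrial proline dehydrogenase that degrades proline, were 3.5, 3.56 and 2.99 in KO1 and 3.12, 3.87 and 3.77 in KO3, against 2.46 and 2.35 in WT. All KO arrays were above both WT arrays. Relative to the array median the WT signals were at -0.16 and -0.26, and the KO signals at 0.37 to 1.24. KO1 differed from WT by 0.94 (SE 0.24, adjusted p = 0.23) and KO3 by 1.18 (SE 0.24, adjusted p = 0.0807), so neither passed the test. It passed in KO3 when KO3 replicate 1 was left out (1.42, SE 0.20, adjusted p = 0.0422). ERD5, the proline dehydrogenase also known as ProDH1, differed by -0.36 in KO1 and -0.15 in KO3 (adjusted p = 0.686 and 0.846), and its arrays overlapped with WT. OAT, the ornithine aminotransferase, differed by -0.04 and 0.02.

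Among the raffinose genes, DIN10, a dark-inducible member of the raffinose synthase family, had root signals of 6.75, 6.87 and 6.29 in KO1 and 6.23, 6.59 and 7.50 in KO3, against 7.63 and 7.51 in WT. Its KO arrays were all below the WT arrays, opposite to SIP1, with KO3 replicate 3 almost at the WT level. KO1 differed from WT by -0.93 (SE 0.31, adjusted p = 0.414) and KO3 by -0.80 (adjusted p = 0.369). GolS3, a galactinol synthase, which supplies the galactose donor, differed by 0.58 in KO1 and 0.54 in KO3 (adjusted p = 0.498 and 0.398) at signals of 1.6 to 2.69, near or below the array medians. The alpha-galactosidases SIP2 and AGAL3, which release galactose from such sugars, differed by -0.07 and 0.09 in KO1 and by 0.34 and 0.19 in KO3. SIP1 was thus the only raffinose gene measured with a root difference above 1.

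In the list around ALDH7B4, LKR/SDH had the lowest adjusted p of all 16 genes in roots. It encodes the bifunctional enzyme that starts lysine breakdown, upstream of the semialdehyde that antiquitins oxidise. Its root signals were 4.58, 4.81 and 4.93 in KO1 and 4.76, 4.62 and 4.67 in KO3, against 5.6 and 5.38 in WT. Every KO array was below both WT arrays. The difference was -0.72 in KO1 and -0.81 in KO3 (SE 0.15 each), with an adjusted p of 0.14 and 0.0725. The other aldehyde dehydrogenases showed smaller root differences, from -0.14 (ALDH10A8) to 0.22 (ALDH3F1) in KO1 and from -0.31 (ALDH10A8) to 0.63 (ALDH3F1) in KO3.

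**Figure D3:**
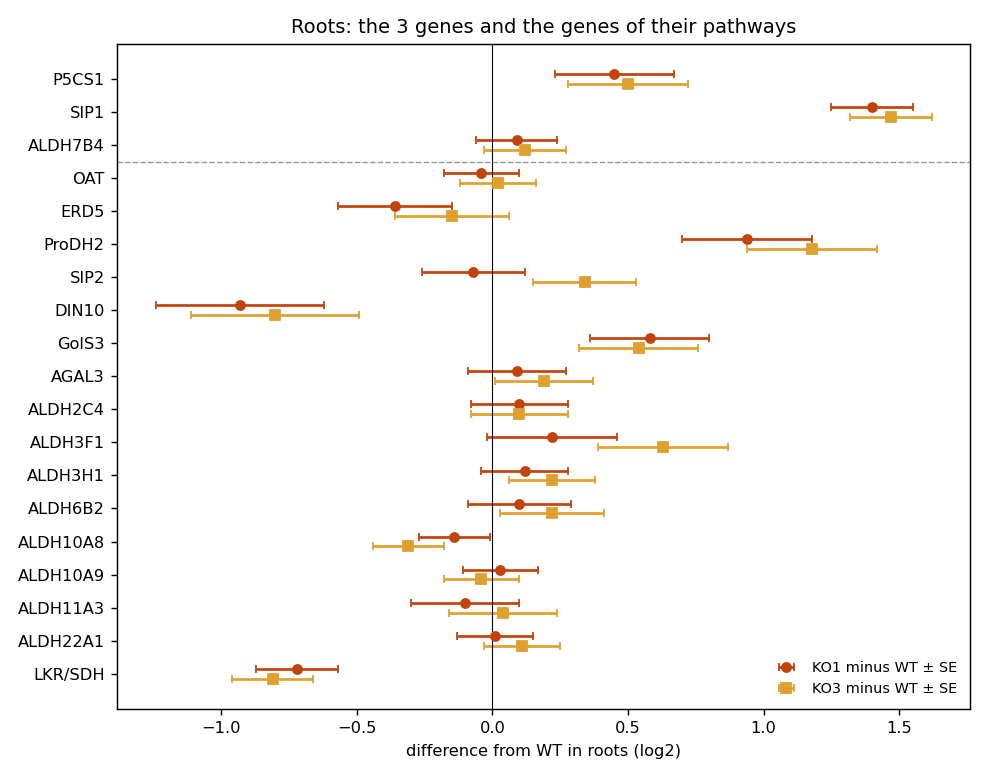
Difference from WT in roots (log2, horizontal axis, ± limma's standard error) for KO1 and KO3, with P5CS1, SIP1 and ALDH7B4 above the dashed line and the 16 measured genes of their pathways below it. SIP1 is farthest to the right in both lines, followed by ProDH2 (0.94 in KO1 and 1.18 in KO3), while DIN10 and LKR/SDH lie to the left.

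In shoots most of the 16 pathway genes had lower means in KO1, as did most of the array. Of these genes 14 had a lower mean in KO1 than in WT, against 61.4% of all probe sets, and in 7 every KO1 array was below every WT array, against 12.2% of all probe sets. Without KO1 replicate 1 that count was again 7, against 14.6%. The median difference was -0.70, against -0.063 over all probe sets, and it was -0.32 without KO1 replicate 1. Limma called 0 of the 16, against 0.309% of all probe sets called lower and 0.0% called higher. At an unadjusted p under 0.05, 8 of the 16 were lower and 0 higher, against 8.48% and 1.46% of all probe sets, and without KO1 replicate 1 the counts were 7 and 0, against 6.31% and 3.53%. The split of calls over all probe sets changed with scaling, from 0 higher and 56 lower in the deposited values to 44 higher and 118 lower after quantile normalisation. In KO3 shoots limma called 0 of 16, against 0.138% called lower and 0.00552% called higher, and the median difference was -0.02. There 1 gene was lower and 0 higher at an unadjusted p under 0.05, against 2.73% and 2.29%. Complete separation from WT in KO3 shoots was seen for 4 of the 16 genes lower and 0 higher, against 6.32% and 6.06% of all probe sets.

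The means farthest below WT in KO1 shoots were those of ALDH10A8, a betaine aldehyde dehydrogenase homologue, and SIP2. ALDH10A8 had signals of 4.68, 6.48 and 6.83 in KO1 and 7.19, 7.20 and 6.95 in KO3, against 7.70, 7.62 and 7.50 in WT. Both KO lines were below WT on every array, and KO1 replicate 1 was the lowest by far. KO1 differed from WT by -1.61 (adjusted p = 0.282, limma) and KO3 by -0.49 (adjusted p = 0.998). The SD was 1.15 in KO1, 0.14 in KO3 and 0.10 in WT. Both p-values rest on 1 estimate of the spread shared by the 3 lines, which includes KO1 replicate 1. Without KO1 replicate 1 the difference was smaller in KO1, at -0.95, but passed the test (SE 0.17, adjusted p = 0.0312). SIP2 had signals of 4.12, 5.24 and 4.46 in KO1 and 5.96, 6.85 and 5.31 in KO3, against 5.98, 6.28 and 5.78 in WT. Its difference from WT was -1.41 in KO1 (SE 0.40, adjusted p = 0.273), or -1.16 without replicate 1, and 0.03 in KO3. For DIN10 the shoot differences were of like size in both lines, at -1.08 for KO1 (adjusted p = 0.352), or -0.97 without replicate 1, and -1.22 for KO3 (adjusted p = 0.571). LKR/SDH had the lowest adjusted p of the 16 genes in KO1 shoots (0.169, limma). Its difference from WT there was -0.98, -0.94 without replicate 1 and -0.85 after quantile normalisation, at KO1 signals of 1.90 to 2.23, near the array medians. In KO3 shoots it was -0.48 (adjusted p = 0.998), and the arrays overlapped with WT.

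How far KO1 replicate 1 carried these values was examined by leaving it out and by quantile normalisation of the shoot arrays. For P5CS1 the difference from WT was -1.13 with all arrays as deposited, -0.43 without replicate 1 and -0.26 after quantile normalisation. For ALDH7B4 it was -1.04, -0.60 and -0.58. For SIP1 it was -0.23 with all arrays and -0.01 without replicate 1, and its sign turned after quantile normalisation (0.20). The photosynthesis markers changed sign, since the differences between KO1 and WT were -0.52 for LHCB4.1 and -0.64 for LHCB4.2 with all arrays but 0.10 and 0.14 without replicate 1 and 0.48 and 0.38 after quantile normalisation. Among the 16 pathway genes, 13 still had a lower mean in KO1 without replicate 1 and 9 after quantile normalisation, and the median after quantile normalisation was -0.10. What set replicate 1 apart was not tested.

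**Figure D4:**
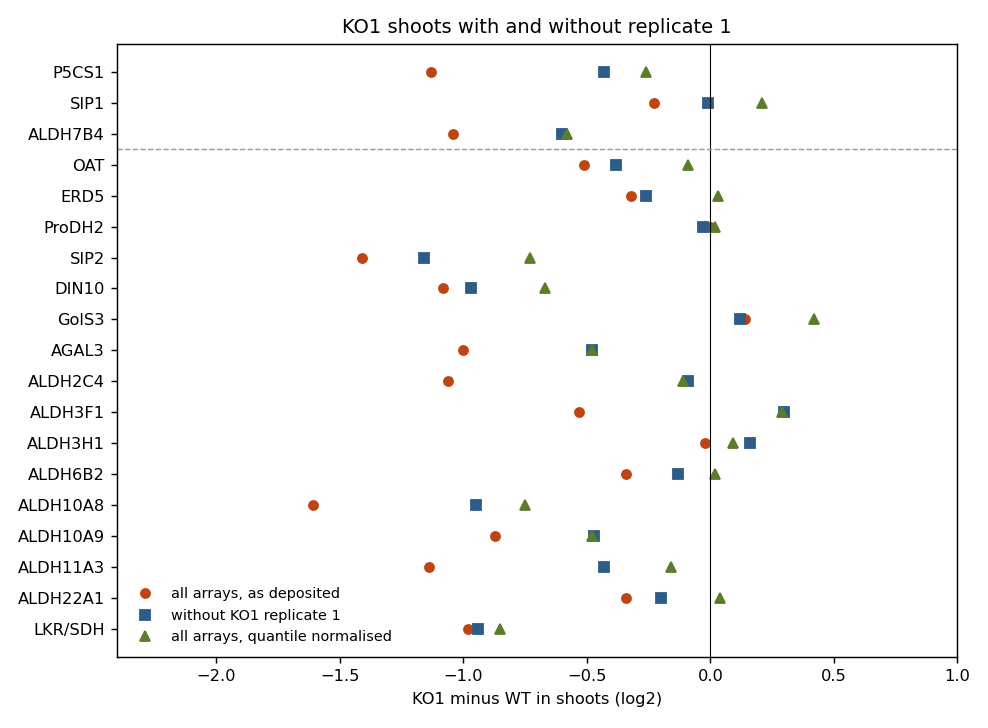
Difference between KO1 and WT in shoots (log2, horizontal axis) for P5CS1, SIP1 and ALDH7B4 (above the dashed line) and the 16 pathway genes, with all arrays as deposited, without KO1 replicate 1, and with all arrays quantile normalised. Most genes move toward 0 when replicate 1 is left out, P5CS1 by the most of the 3 members (-1.13 with it and -0.43 without it).

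Finally, the probe sets whose pattern over the 17 arrays was most like that of each gene were sought, by the root mean square (RMS) difference of signals after centring on the mean of each organ. For SIP1 they were LEA14, a late embryogenesis abundant protein (RMS difference 0.259), ERF53, an AP2/ERF transcription factor (0.315), HVA22D, an ABA-inducible HVA22 homologue (0.318), and AT5G13200 (0.318). SIP1's own RMS spread was 0.58. In roots these 4 genes differed from WT by 1.14 in KO1 and 0.96 in KO3 for LEA14, 1.70 and 1.61 for ERF53, 1.34 and 1.19 for HVA22D, and 1.32 and 0.94 for AT5G13200. For P5CS1 the nearest probe sets were those of PRXIIF (0.22), rpl20 (0.23), AT5G47030 (0.234) and ACLB-1 (0.235), all of them below WT in KO1 shoots (-0.82 to -1.25, or -0.22 to -0.47 without replicate 1) and 0.09 to 0.28 above WT in the roots of both lines. For ALDH7B4 they were AT5G13560 (0.143), AT3G58640 (0.16), AT1G07650 (0.169) and AT3G07660 (0.172). All of these genes were picked for likeness over the same arrays, so differences from WT like those of the member follow from the picking. The likeness covers arrays that share processing and includes KO1 shoots replicate 1. Without that array 1 of the 4 stayed among the nearest for SIP1 (ERF53), 1 for ALDH7B4 (AT5G13560) and 0 for P5CS1.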

How the data were processed

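Labelled cDNA was hybridised to Affymetrix Arabidopsis Gene 1.1 ST arrays. The authors deposited RMA log2 signals of 28583 probe sets with 2 decimals. The submitters' processing notes name RMA, Transcriptome Analysis Console and TAIR10, whose versions are not given in the sources used here, nor are the settings of background correction. The platform table named 17504 probe sets, ALDH7B4 among them. The study's supplementary lists of genes changed in an NBR1 overexpression line named 603 more, and only names were taken from them. These include P5CS1, SIP1 and the pathway genes ERD5, SIP2, DIN10, GolS3 and ALDH3H1.

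The 18107 named probe sets were fitted by lmFit and eBayes of limma 3.58.1 (R 4.3.3), separately for shoots and roots, with the 3 lines of an organ sharing 1 estimate of the spread. P-values were adjusted by the Benjamini-Hochberg method over all of them, with a threshold of 0.05. Intervals are 95% confidence intervals. The number of arrays limits the precision, and WT roots had only 2. Python 3.11.15, NumPy 2.4.6, pandas 2.3.3 and matplotlib 3.10.9 made tables and figures, and the fit was tested on simulated data.

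The 3 genes and the pathway lists were chosen with earlier results of these data known. Named genes are NBR1, the 3 genes, list genes that passed the test, close relatives of the 3, list genes acting on their products, and up to 4 nearest probe sets for each with at least 0.5 times the member's spread. All others were named after their values were seen. For a gene with several probe sets, the one with the highest mean stood for it. Residuals of KO1 and KO3 shoot arrays with the same number correlated by 0.14 to 0.28 (3 pairs), and those with other numbers by -0.27 to 0.06 (6 pairs). Arrays with the same number were thus more alike in this comparison, but so few pairs do not establish a pairing, and the labels state none. For KO1 and WT roots, arrays with the same number correlated by 0.214 and 0.137, and those with other numbers by -0.214 to 0.056. With only 2 WT root arrays, their residuals are equal and opposite, so these pairs are not independent. In the remaining comparisons not every pair with the same number was over 0.1, and shoot arrays with other numbers reached 0.23. The alternatives tried were quantile normalisation, subtraction of array medians, leaving out each array in turn, a replicate block (also with KO1 and KO3 shoots alone, added after the data were seen), weighting of arrays, a fit of all 17 arrays, a fit of just the pair of groups compared, a trended and robust eBayes, names of the platform table alone, all 28583 probe sets, and removal of those under the 30th percentile of signal.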

Additional observations from a re-analysis of the deposited data

Results flagged for a closer look

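P5CS1 lay on opposite sides of WT in the 2 organs of KO1. Every KO1 shoot array was below the WT mean and every KO1 root array above it, with differences of -1.13 in shoots and 0.45 in roots. The root arrays of KO1 overlapped those of WT, since the lowest KO1 array (2.80) was below the higher WT array (2.81). The 2 WT root arrays differed by 0.44. AGAL3, an alpha-galactosidase, also lay on opposite sides of WT, with -1.0 in KO1 shoots and 0.09 in KO1 roots. Its root arrays of KO1 also overlapped those of WT (SE 0.18, unadjusted p 0.63, limma), which differed from each other by 0.40. In neither gene was the difference between the organs tested. Without KO1 shoots replicate 1 the shoot values were -0.43 for P5CS1 and -0.48 for AGAL3. After quantile normalisation they were -0.26 and -0.48.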

How the results depend on the processing

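SIP1 in roots lay 1.33 to 1.41 above WT in KO1 and 1.40 to 1.48 in KO3 under the other settings, and 1.29 to 1.51 and 1.46 to 1.48 with single arrays left out. P5CS1 in KO1 shoots was -0.26 after quantile normalisation and -1.58 to -0.43 with arrays left out, the smallest without KO1 replicate 1. KO1 minus KO3 in roots changed sign with single arrays left out, over -0.23 to 0.07 for P5CS1, -0.18 to 0.04 for SIP1 and -0.08 to 0.05 for ALDH7B4, with adjusted p of at least 0.996 throughout. In shoots its adjusted p was 0.32 to 0.986 for P5CS1, 0.329 to 0.986 for SIP1 and 0.308 to 0.986 for ALDH7B4. With all 17 arrays in 1 fit, 1 raffinose gene (SIP2, adjusted p = 0.0365) and 2 genes of the ALDH7B4 list (ALDH10A8, 0.028, and LKR/SDH, 0.0139) were lower in KO1 shoots. With arrays left out, 0 to 1 proline genes were higher in KO3 roots and 0 to 1 genes of the ALDH7B4 list lower in KO1 shoots. The cause was not tested. Over all probe sets 0 were called higher and 56 lower in KO1 shoots, against 44 and 118 after quantile normalisation, 33 and 147 without KO1 replicate 1 and 20 and 415 with all 17 arrays in 1 fit. In KO3 shoots the counts were 1 and 25, against 22 and 68 after quantile normalisation and 47 and 111 without KO1 replicate 1. In roots they were 16 and 7 in KO1 (0 to 38 and 1 to 24 over all settings) and 22 and 17 in KO3 (0 to 47 and 0 to 61).

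Over all lines, residuals of arrays with the same number correlated by -0.14 to 0.28 in shoots and -0.05 to 0.21 in roots, and those with other numbers by -0.27 to 0.23 and -0.21 to 0.07. For KO1 minus KO3 in shoots a replicate block gave adjusted p of 0.558 for P5CS1, 0.561 for SIP1 and 0.558 for ALDH7B4 with all lines, and 0.591, 0.61 and 0.591 with KO1 and KO3 alone, a fit chosen after seeing the data, so it changed no call. With a replicate block SIP1 in roots was 1.35 above WT in KO1 and 1.42 in KO3, and no gene of the lists was called. Leaving out 1 WT root array leaves 1, which is then assumed to vary like the other groups.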
